A study of Mus musculus with 6 samples.

Results

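CC chemokines are small secreted proteins with a pair of adjacent cysteines near the N-terminus, and they guide leukocytes along a concentration gradient through G protein-coupled receptors of the CCR family. Macrophages are a major source of them in inflamed tissue and in tumors, where they recruit monocytes, further macrophages, T cells and granulocytes. The 10 genes described here are Ccl2, Ccl3, Ccl4, Ccl5, Ccl6, Ccl7, Ccl8, Ccl9, Ccl12 and Ccl24, taken by symbol from a table of 22377 genes as the CC chemokines usually ascribed to macrophages. All 10 were found in the table, and all 10 passed edgeR's filter on low counts.

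RNA was sequenced in 6 libraries from mice bearing subcutaneous tumors of LLC, the mouse Lewis lung carcinoma line. Of these, 3 are titled wt and 3 are titled ko, with the treatment given as knockdown, and the groups in the study's methods are Npm1+/+ and Npm1+/- mice. Npm1 encodes nucleophosmin, an abundant nucleolar protein. The mice were young adults of both sexes, and tumors of both groups were collected at the same end point. The Npm1+/- genotype is that of the host animal, with no macrophage-specific promoter or Cre named, so other host cells carry it too and the implanted LLC cells do not. No drug is given for these tumors. The methods describe CD45+ CD11b+ F4/80+ macrophages sorted from the tumors and a low-input cDNA kit, whereas the labels give tumor tissue and a small RNA protocol, and which holds for these libraries is not settled here. The replicates are labelled as separate biosamples, without saying from which or how many animals. A legend in the study gives fewer individual mice than there are libraries in a group, so libraries may share an animal, in which case the p-values here are too small and n counts libraries, not mice. Total counts lay between 36550775 and 38147320 per library. Levels of a gene across libraries are given in CPM, which is the count relative to the library size after TMM scaling. Macrophage markers were abundant, with a summed level of 12 genes between 12888 and 26616 CPM in the 6 libraries. The library wt 1 stood apart from the rest, at -108 on a first principal component that held 67.99% of the variance, with the other libraries between -4.54 and 52.0. The Npm1 level was 142, 380.2 and 381 CPM in wt 1, 2 and 3 and 441, 499 and 343 in ko 1, 2 and 3, so Npm1 mRNA was not lower in the libraries titled ko, and the directions below are those between libraries as titled.

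Several of the CC chemokines were among the most abundant transcripts of these libraries. FPKM, which divides the counts by gene length and by the library total, was used to compare levels between genes. The 10 genes together held between 1.13% and 1.79% of the summed FPKM of all genes. Ccl6 ranked between 18 and 27 among all 22377 genes in the 6 libraries, and Ccl2, Ccl4 and Ccl3 ranked between 24 and 124. Lower down, Ccl12 ranked between 920 and 1588, Ccl24 between 1811 and 2843 and Ccl8 between 3607 and 6356. By median FPKM over the libraries the order was Ccl6 at 1656, Ccl2 at 1308, Ccl4 at 1299, Ccl3 at 1131, Ccl9 at 747, Ccl7 at 365, Ccl5 at 284, Ccl12 at 50.5, Ccl24 at 22.9 and Ccl8 at 7.44. The ranges of the neighbors Ccl6, Ccl2, Ccl4, Ccl3 and Ccl9 overlapped in turn, as did those of Ccl7 and Ccl5, whereas Ccl9 and Ccl7, Ccl5 and Ccl12, Ccl12 and Ccl24, and Ccl24 and Ccl8 were separated in all libraries. Within single libraries Ccl6 exceeded Ccl2 in 6 of 6 and Ccl4 exceeded Ccl3 in 4 of 6.

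**Figure D1:**
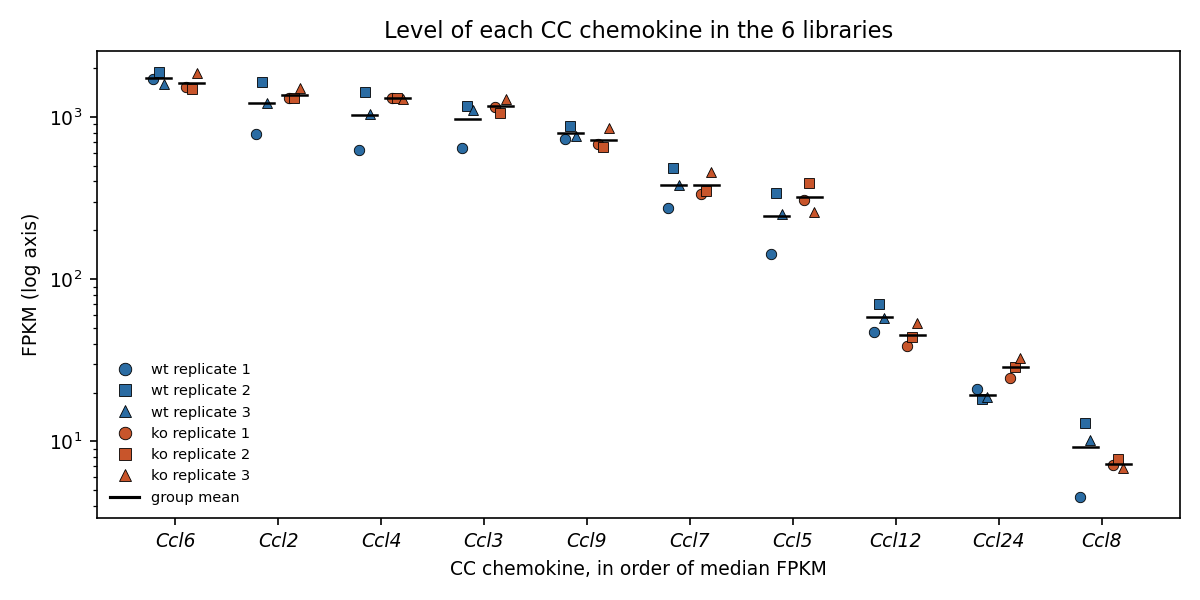
FPKM of the 10 CC chemokines (log axis) in the 3 wt libraries (blue) and the 3 ko libraries (orange), 1 point per library, with the group mean as a bar. Levels span from 4.57 FPKM for Ccl8 in wt 1 to 1892 FPKM for Ccl6 in wt 2, and only for Ccl24 do all ko points lie above all wt points.

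Whether the CC chemokines differed between the libraries titled ko and wt was tested with edgeR (quasi-likelihood test, p-values adjusted by Benjamini-Hochberg across 13884 genes). At an adjusted p under 0.05 there were 0 of the 10, against 0% of all genes tested. At an unadjusted p under 0.05 there was 1 of the 10, Ccl24, against 15.2% of all genes tested. The estimate was higher in ko for 5 genes and lower for 5, with a median log2 fold change of -0.05, against 0.02 over all genes tested. DESeq2 on the same counts also called 0 of the 10, with 1, Ccl12, at an unadjusted p under 0.05, against 11% of all genes there. The estimates moved with single libraries. Without wt 1 the estimate was higher in ko for 1 of the 10, with a median of -0.21, and without wt 2 it was higher for 6, with a median of 0.20. Without ko 3 it was higher for 3, with a median of -0.23. In those fits the number of the 10 at an unadjusted p under 0.05 was 3 without wt 1, 0 without wt 2 and 3 without ko 3, against 12.2%, 18.8% and 17.3% of all genes, and 0 passed the adjusted threshold in each. The groups were apart, with ko higher, for 1 of the 10 genes against 13.3% of all genes tested, and apart with ko lower for 0 of the 10 against 12.6%. The 95% intervals hold under TMM scaling with the libraries taken as independent, and they are too narrow if libraries share an animal. For Ccl2 the interval ran from 0.665-fold to 1.58-fold and for Ccl6 from 0.621-fold to 1.16-fold. Scaled to the list of macrophage markers, as described below, Ccl6 stood at a log2 fold change of 0.27, above its upper limit of 0.22.

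**Figure D2:**
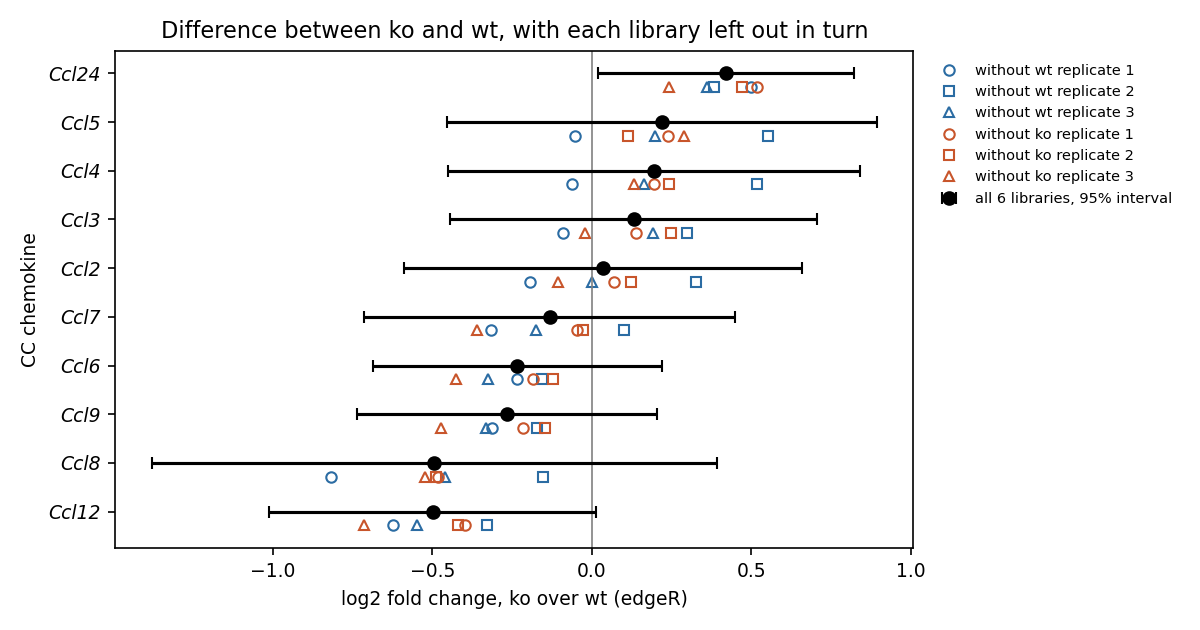
Log2 fold change of each CC chemokine, ko over wt, from edgeR on all 6 libraries with its 95% interval (black) and from the fits that leave out 1 library each (open symbols). The estimates of Ccl24 stay above 0 and those of Ccl12, Ccl8, Ccl9 and Ccl6 below 0 in each of these fits, while those of Ccl2, Ccl3, Ccl4, Ccl5 and Ccl7 take both signs.

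Ccl2, Ccl7, Ccl12 and Ccl8 are the monocyte chemoattractant proteins of the mouse. Ccl2, Ccl7 and Ccl12 act mainly on CCR2, which draws monocytes out of the bone marrow and into tissue, and mouse Ccl8 acts on CCR8. Their genes lie in a stretch of 81229 bp on chromosome 11 of GRCm38 (GENCODE annotation), all on the plus strand. Ccl2 (NCBI Gene 20296) spans chr11:82035571-82037453, Ccl7 (20306) chr11:82045712-82047525, Ccl12 (20293) chr11:82101845-82103400 and Ccl8 (20307) chr11:82115185-82116799. Promoter sequences were at hand for Ccl12 and Ccl8, the neighbors with the lowest estimates in ko. The 250 bases before the RefSeq start (GRCm38.p6, plus strand) are shown at chr11:82101595-82101844 for Ccl12 and at chr11:82114935-82115184 for Ccl8, 5′ to 3′, to let the pair be compared. Capitals mark TATAAA, the TATA box, and GAGGAA, a core of sites of the myeloid factor PU.1, on either strand.
Ccl12: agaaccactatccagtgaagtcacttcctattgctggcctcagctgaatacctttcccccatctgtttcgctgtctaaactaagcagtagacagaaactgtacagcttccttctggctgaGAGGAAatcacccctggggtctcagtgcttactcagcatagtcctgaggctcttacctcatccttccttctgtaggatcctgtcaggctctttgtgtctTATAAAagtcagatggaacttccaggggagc
Ccl8: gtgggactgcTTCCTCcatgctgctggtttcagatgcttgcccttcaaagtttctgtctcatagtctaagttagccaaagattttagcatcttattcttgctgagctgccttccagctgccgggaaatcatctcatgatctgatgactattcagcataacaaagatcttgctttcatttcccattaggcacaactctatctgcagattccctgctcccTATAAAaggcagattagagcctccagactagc
Both promoters held TATAAA close to the start, beginning 31 bases before it in Ccl12 and 32 in Ccl8, and TATAAA was found on either strand in 12.4% of 32851 promoter windows of the same length. GAGGAA was found in both and in 23.3% of all windows. The letters of an interferon-stimulated response element, searched as GAAA, any 2 bases and GAAA, were in neither, and in 2.98% of all windows. The longest run common to both on the same strand was 8 bases.

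Ccl2 was at 682, 1415 and 1002 CPM in wt 1, 2 and 3 and at 1008, 916 and 1252 CPM in ko 1, 2 and 3. The lowest and the highest value were both wt libraries, and the groups overlapped. Its mean was 1033 ± 367 CPM (SD, n = 3) in wt and 1059 ± 174 CPM (SD, n = 3) in ko, with a log2 fold change of 0.04 ± 0.27 (SE, adjusted p = 0.945, edgeR). Without wt 1 the log2 fold change of Ccl2 was -0.19, and without wt 2 it was 0.33. Ccl7 was at 236, 418 and 308 CPM in wt 1, 2 and 3 and at 256, 245 and 376 CPM in ko 1, 2 and 3. As for Ccl2, wt 1 was lowest, wt 2 was highest and the groups overlapped, with a log2 fold change of -0.13 ± 0.25 (SE, adjusted p = 0.767). Its estimate was 0.10 without wt 2.

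Ccl12 had the lowest estimate of the 10 genes. It was at 27.2, 40.5 and 31.4 CPM in wt 1, 2 and 3 and at 19.9, 20.5 and 29.7 CPM in ko 1, 2 and 3. The ko 1 and ko 2 libraries were below all wt libraries and ko 3 lay between wt 1 and wt 3. The means were 33.0 ± 6.80 CPM (SD, n = 3) in wt and 23.4 ± 5.53 CPM (SD, n = 3) in ko, and the log2 fold change was -0.50 ± 0.22 (SE, 95% interval -1.01 to 0.01, adjusted p = 0.329), which did not pass the threshold. A two-sided exact permutation test over the libraries gave p = 0.2, where 3 against 3 cannot go below 0.1. Ccl8 was the least abundant of the 10, with counts between 89 and 251. It was at 2.5, 7.07 and 5.29 CPM in wt 1, 2 and 3 and at 3.46, 3.46 and 3.64 CPM in ko 1, 2 and 3. The ko libraries were close to each other and lay between wt 1 below and the other wt libraries above. The log2 fold change of Ccl8 was -0.49 ± 0.38 (SE, adjusted p = 0.462), and it was -0.82 without wt 1 and -0.15 without wt 2.

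Levels within a library were also compared, since a ratio of 2 genes is not moved by the scaling between libraries. These ratios were chosen after the values had been seen and are given without a test. For each 100 FPKM of Ccl2 there were 5.99, 4.3 and 4.71 FPKM of Ccl12 in wt 1, 2 and 3 and 2.97, 3.36 and 3.57 FPKM in ko 1, 2 and 3. Each ko library was below each wt library, as was the case for 3.03% of all genes tested when divided by Ccl2. Relative to Ccl7, Ccl12 was likewise lower in each ko library, at 17.2, 14.5 and 15.2 FPKM per 100 in wt and 11.6, 12.5 and 11.8 FPKM per 100 in ko, as for 0.98% of all genes tested when divided by Ccl7. Ccl7 itself was at 34.8, 29.7 and 31.0 FPKM per 100 of Ccl2 in wt 1, 2 and 3 and at 25.6, 27.0 and 30.2 in ko 1, 2 and 3, and here the groups overlapped.

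**Figure D3:**
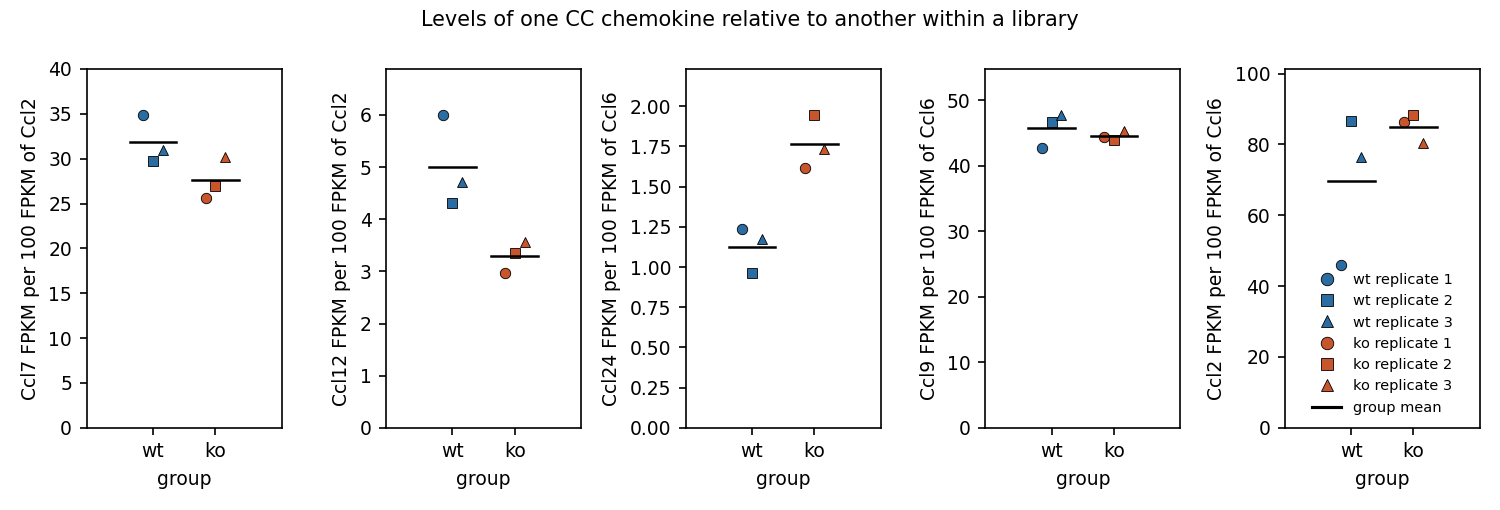
FPKM of 1 CC chemokine per 100 FPKM of another in the same library, for 5 pairs, with 1 point per library and the group mean as a bar (linear axes from 0). The ko points of Ccl12 per Ccl2 lie below all wt points and those of Ccl24 per Ccl6 above them, Ccl9 per Ccl6 stays between 42.7 and 47.7 in all libraries, and wt 1 is low, at 46.1, for Ccl2 per Ccl6.

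Ccl3, Ccl4 and Ccl5 are inflammatory chemokines that draw monocytes and T cells, and Ccl3 and Ccl5 act on CCR1. Ccl3 and Ccl4 are the macrophage inflammatory proteins that activated macrophages make within hours, and Ccl5 is made by macrophages and also by activated T and NK cells. Ccl3 (NCBI Gene 20302) lies at chr11:83647844-83649355 on the minus strand and Ccl4 (20303) at chr11:83662584-83664683 on the plus strand, 13228 bp apart, and Ccl5 (20304) lies at chr11:83525778-83530518 on the minus strand. These genes, with Ccl9 and Ccl6, form a second cluster of 138906 bp. Ccl3 was at 545, 985 and 888 CPM in wt 1, 2 and 3 and at 871, 724 and 1052 CPM in ko 1, 2 and 3. Ccl4 was at 439.6, 1007 and 701 CPM in wt 1, 2 and 3 and at 817, 756 and 885 CPM in ko 1, 2 and 3. In both genes wt 1 was the lowest library and the groups overlapped. The log2 fold change was 0.13 ± 0.25 for Ccl3 (SE, adjusted p = 0.768) and 0.19 ± 0.28 for Ccl4 (SE, adjusted p = 0.69). Without wt 1 these estimates were -0.09 and -0.06.

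Ccl5 was at 81.1, 195 and 137 CPM in wt 1, 2 and 3 and at 156, 181 and 143 CPM in ko 1, 2 and 3. The wt libraries held both the lowest and the highest value, and the log2 fold change was 0.22 ± 0.29 (SE, adjusted p = 0.665), or -0.05 without wt 1 and 0.55 without wt 2. T and NK cells also make Ccl5, and the gate on CD45, CD11b and F4/80 in the methods would remove most of them. The list of 12 T and NK cell markers was at a summed 71.6, 74.2 and 178 CPM in wt 1, 2 and 3 and 170 CPM, 408 CPM and 144 CPM in ko 1, 2 and 3. All 12 had a higher estimate in ko, against 52.1% of all genes, with a median log2 fold change of 1.14, and 5 were at an unadjusted p under 0.05, against 15.2% of all genes. Per 100 FPKM of Ccl3, Ccl5 was at 22.1, 29.4 and 22.8 FPKM in wt 1, 2 and 3 and 26.5, 37.2 and 20.2 FPKM in ko. The highest ratio was in ko 2, which also had the highest marker sum. The next was in wt 2, where the sum was 74.2 CPM, and wt 3 was at 22.8 FPKM with a sum of 178 CPM for the T and NK cell markers. The part of these cells in the Ccl5 level was not tested. In a bulk library fewer cells of a type and less RNA per cell cannot be told apart.

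Ccl6 and Ccl9 are chemokines of rodents that act on CCR1 and are made in quantity by macrophages and other myeloid cells. Ccl9 (NCBI Gene 20308) lies at chr11:83572919-83578636 and Ccl6 (20305) at chr11:83587882-83593087, both on the minus strand and 9245 bp apart. Their promoters are shown because the RNA levels of the pair kept a narrow ratio across the libraries, as given below. The 250 bases before the RefSeq start (GRCm38.p6, minus strand) are those at chr11:83578637-83578886 for Ccl9 and at chr11:83593088-83593337 for Ccl6, 5′ to 3′. Capitals mark matches to TATAAA, to TGANTCA of AP-1 and to an NF-kB motif of GGG, any 3 bases and TTCC on either strand, of which Ccl6 had none, and overlapping TATAAA matches on opposite strands are joined.
Ccl9: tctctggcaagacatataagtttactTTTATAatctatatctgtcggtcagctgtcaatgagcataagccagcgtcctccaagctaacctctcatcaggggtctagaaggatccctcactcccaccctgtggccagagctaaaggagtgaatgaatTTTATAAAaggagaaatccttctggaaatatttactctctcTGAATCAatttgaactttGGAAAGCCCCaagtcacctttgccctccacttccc
Ccl6: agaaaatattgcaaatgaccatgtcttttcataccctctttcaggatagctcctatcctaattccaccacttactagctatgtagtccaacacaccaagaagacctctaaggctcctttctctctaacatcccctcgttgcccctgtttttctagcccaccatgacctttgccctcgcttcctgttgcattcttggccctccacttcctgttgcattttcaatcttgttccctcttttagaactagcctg
The AP-1 letters were found in 6.75% and the NF-kB letters in 4.65% of all promoter windows of this length. The STAT letters TTCNNNGAA were in neither promoter and in 7.02% of all windows, and the C/EBP letters TTGCNNAA were in neither and in 9.56% of all windows. The pair had a run of 13 bases in common, gccctccacttcc, which began 14 bases before the start of Ccl9 and 55 bases before that of Ccl6, the longest run shared by any of the 10 pairs among the 5 genes with a promoter sequence.

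Ccl6 was at 2636, 2912 and 2338 CPM in wt 1, 2 and 3 and at 2081, 1852 and 2775 CPM in ko 1, 2 and 3. The ko 1 and ko 2 libraries were below all wt libraries, and ko 3 lay above wt 1 and wt 3. Its means were 2629 ± 287 CPM (SD, n = 3) in wt and 2236 ± 481 CPM (SD, n = 3) in ko, with a log2 fold change of -0.23 ± 0.19 (SE, adjusted p = 0.493). Ccl9 had the same order of libraries within ko, at 2360, 2851 and 2336 CPM in wt 1, 2 and 3 and 1937, 1704 and 2635 CPM in ko 1, 2 and 3. Its log2 fold change was -0.27 ± 0.20 (SE, adjusted p = 0.457). Neither difference passed the test, and in both genes the groups overlapped. Per 100 FPKM of Ccl6 there were 42.7, 46.7 and 47.7 FPKM of Ccl9 in wt 1, 2 and 3 and 44.4, 43.9 and 45.3 FPKM in ko 1, 2 and 3. The highest of these was 1.12-fold the lowest. Among other pairs, Ccl4 per Ccl3 varied 1.32-fold and Ccl7 per Ccl2 1.36-fold. Ccl2 per 100 FPKM of Ccl6 varied 1.91-fold, from 46.1 in wt 1 to 88.2 in ko 2. How many of all genes kept so narrow a ratio to Ccl6 was not counted. The library wt 1, low in Ccl2, Ccl3, Ccl4, Ccl5 and Ccl7, was thus not the lowest in Ccl6 or Ccl9.

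Macrophage markers had lower estimates in ko, as did 5 of the 10 chemokines, namely Ccl6, Ccl9, Ccl7, Ccl8 and Ccl12. The 12 genes of that list were at a summed 26616, 24889 and 21346 CPM in wt 1, 2 and 3 and 17073, 12888 and 21850 CPM in ko 1, 2 and 3, and all 12 had a lower estimate in ko, against 47.9% of all genes, with a median log2 fold change of -0.53. Of these 6 were at an unadjusted p under 0.05, against 15.2% of all genes. Within ko, ko 2 was lowest and ko 3 highest in this sum, as for Ccl6 and Ccl9 but also for Ccl2, Ccl3, Ccl4 and Ccl7. Within wt, the sum was highest in wt 1, whereas Ccl6 and Ccl9 were highest in wt 2. When the counts were scaled to this list, a choice made after the data were examined, the median of all genes was at 0.57 on the log2 scale, and Ccl6 stood at 0.27 and Ccl9 at 0.23, both below that median. Ccl12 stood at -0.0016, Ccl8 at 0.0252, Ccl7 at 0.35 and Ccl24 at 0.94, and 0 of the 10 genes passed an adjusted p of 0.05. The part of macrophage content in the levels of the 10 genes was not tested.

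Ccl24, or eotaxin-2, acts on CCR3 and attracts eosinophils, and macrophages activated by IL-4 make it. Ccl24 (NCBI Gene 56221) is the only one of the 10 outside chromosome 11, at chr5:135569937-135573049 on the minus strand. It was at 31.1, 26.7 and 26.2 CPM in wt 1, 2 and 3 and at 32.2, 34.3 and 46.0 CPM in ko 1, 2 and 3. Each ko library was above each wt library, though ko 1 exceeded wt 1 by little, and the same separation held on the FPKM scale. The means were 28 ± 2.68 CPM (SD, n = 3) in wt and 37.5 ± 7.42 CPM (SD, n = 3) in ko. The log2 fold change was 0.42 ± 0.17 (SE, 95% interval 0.02 to 0.82, adjusted p = 0.328), higher in 3 of 3 ko libraries, and did not pass the adjusted threshold. The exact two-sided permutation test gave p = 0.1, the smallest that 3 against 3 allow. Without ko 3 the log2 fold change was 0.24. Per 100 FPKM of Ccl6, Ccl24 was at 1.24, 0.961 and 1.17 FPKM in wt 1, 2 and 3 and at 1.62, 1.94 and 1.73 FPKM in ko 1, 2 and 3, again without overlap, as for 9.55% of all genes tested when divided by Ccl6. Of the eosinophil and mast cell list, 3 genes were tested, and the summed level of the list was at most 14.9 CPM in any library.

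The makeup of the CC chemokine RNA was described by the share of each gene in the summed FPKM of the 10 in a library. The sum was 4985, 7931 and 6452 FPKM in wt 1, 2 and 3 and 6682, 6617 and 7624 FPKM in ko 1, 2 and 3, and the groups overlapped. Ccl6 held 34.3%, 23.9% and 24.8% in wt 1, 2 and 3 and 22.8%, 22.3% and 24.6% in ko 1, 2 and 3. Ccl9 held 14.7%, 11.2% and 11.8% in wt and 10.1%, 9.81% and 11.1% in ko. Ccl12 held 0.948%, 0.888% and 0.892% in wt and 0.583%, 0.661% and 0.705% in ko. For Ccl9 and Ccl12 each ko share was below each wt share, 2 of the 10 genes, against 4.18% of all genes tested when divided by the same sum. For Ccl9 this rests on 11.13% in ko 3 against 11.15% in wt 2, which are nearly equal. Ccl3, Ccl4 and Ccl5 together held 28.2%, 36.9% and 37.2% in wt and 41.4%, 41.6% and 37.4% in ko, where the lowest ko library and the highest wt library differed by little. For 0 of the 10 was each ko share above each wt share, against 6.74% of all genes tested. With CPM in place of FPKM this was so for 1, Ccl24, at 0.442%, 0.271% and 0.337% in wt and 0.448%, 0.533% and 0.500% in ko, against 8.01% of all genes. Shares within a sum are not independent of each other, and wt 1 differed most from the rest, with Ccl6 and Ccl9 at 49.0% together against 32.2% to 36.6% in the other 5 libraries.

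**Figure D4:**
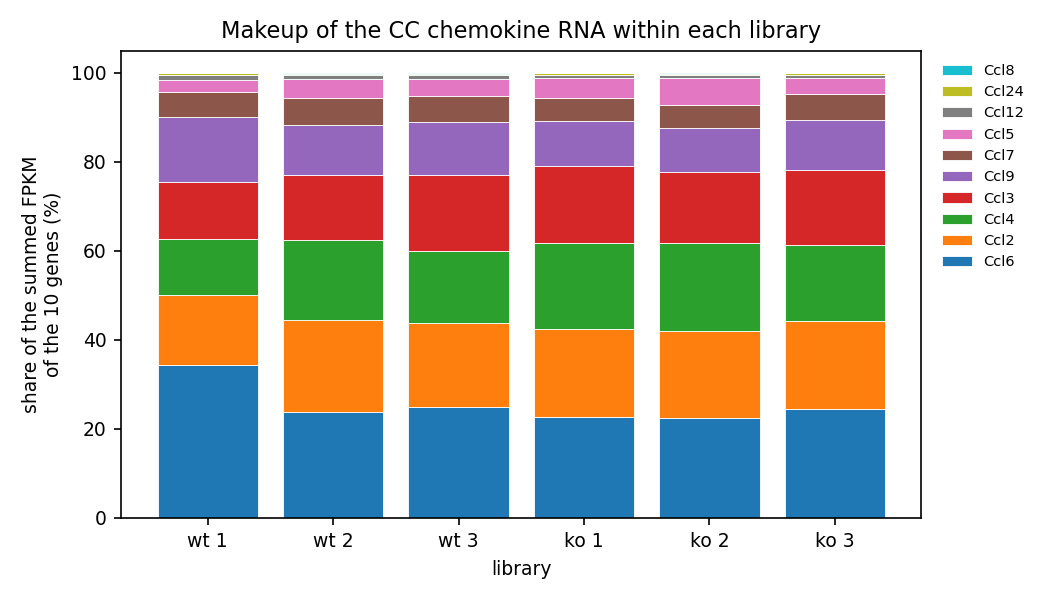
Share of each CC chemokine in the summed FPKM of the 10 genes (percent, stacked to 100) in each of the 6 libraries. Ccl6 takes 34.3% in wt 1 and 22.3% to 24.8% in the other 5 libraries, and Ccl9 takes 14.7% in wt 1 and 9.81% to 11.8% in the others.

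Of the 14 other CC chemokines listed, 5 were tested, with 0 at an unadjusted p under 0.05, against 15.2% of all genes tested. The groups were apart with ko higher for 2 of the 5, against 13.3% of all genes, and with ko lower for 0, against 12.6%. Ccl22, named here after its values were seen, was the most abundant, at 244, 180 and 189 CPM in wt and 237, 132 and 266 CPM in ko. Ccl17, a ligand of CCR4, was the only one of the 5 with a lower estimate in ko, at 23.8, 27.4 and 19 CPM in wt and 25.8, 9.71 and 30.5 CPM in ko (log2 fold change -0.09 ± 0.39, SE, adjusted p = 0.905). Ccl25 had the smallest p among the higher ones, at 1.38, 1.58 and 0.775 CPM in wt and 2.39, 2.22 and 1.94 CPM in ko (log2 fold change 0.81 ± 0.36, SE, adjusted p = 0.329). Ccl19, Ccl20 and Ccl26 had at most 3 counts in each library.

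Of the 6 receptors listed, 4 were tested, and 0 passed the adjusted threshold. All 4 were at an unadjusted p under 0.05, against 15.2% of all genes tested, 2 higher and 2 lower in ko. Their groups did not overlap, as for 13.3% of all genes with ko higher and 12.6% with ko lower. Ccr2, the receptor of Ccl2, Ccl7 and Ccl12, was at 596, 527 and 651 CPM in wt 1, 2 and 3 and at 354, 245 and 501 CPM in ko 1, 2 and 3, with a log2 fold change of -0.69 ± 0.25 (SE, adjusted p = 0.328). Ccr1, named here after its values were seen, had a log2 fold change of -0.53 ± 0.23 (SE, adjusted p = 0.328). Ccr8, which is also found on T cells, was at 1.21, 1.35 and 4.76 CPM in wt and 6.26, 10.0 and 5.69 CPM in ko, with a log2 fold change of 1.58 ± 0.56 (SE, adjusted p = 0.328). Ccr3, also named after its values were seen, was at most 1.89 CPM in any library. The macrophage markers and the T and NK cell markers had the estimates given above, and their part was not tested.

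Of 24 genes that control chemokine transcription or mRNA decay, all were tested, 0 passed the adjusted threshold, and 9 were at an unadjusted p under 0.05, of which 1 was higher and 8 were lower in ko, against 15.2% of all genes in either direction. The median log2 fold change of the list was -0.30, against 0.02 over all genes tested. Irf1, an interferon-induced activator, was the higher one, at 300.1, 286 and 226 CPM in wt 1, 2 and 3 and 394, 412 and 375 CPM in ko 1, 2 and 3 (log2 fold change 0.54 ± 0.14, SE, adjusted p = 0.328). Irf7, a regulator of type I interferon, had the smallest p among the lower ones, at 178, 136 and 127 CPM in wt and 107, 86.9 and 94.6 CPM in ko (log2 fold change -0.61 ± 0.16, SE, adjusted p = 0.328). The NF-kB subunits Nfkb1, Nfkb2, Rel, Rela and Relb, singled out after their values were seen, overlapped between the groups.

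Other cell types were followed by their markers. The 12 fibroblast markers summed to between 3021 and 5798 CPM, most of it Fn1, which macrophages also express, and without Fn1 to 44.5, 503 and 313 CPM in wt 1, 2 and 3 and 722, 621 and 375 CPM in ko 1, 2 and 3. The library wt 1 was lowest in this sum and in Ccl2 and Ccl7, which fibroblasts also make. It was also lowest in Ccl3, Ccl4, Ccl5 and Ccl8. The sum was highest in ko 1, whereas Ccl2 and Ccl7 were highest in wt 2. The part of fibroblasts was not tested. Neutrophil markers summed to 1893 to 2120 CPM in wt and 839 to 1613 CPM in ko, and all 9 tested had a lower estimate in ko, against 47.9% of all genes. The epithelial or carcinoma list summed to at most 192 CPM, the endothelial list to at most 38 CPM, the B cell list to at most 58.0 CPM and the dendritic cell list to between 329 and 525 CPM. No listed marker was at 0 in all libraries.

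No stretch of 50 bases in the GENCODE transcripts of any of the 10 occurred in those of another of the 10, and the longest run in common was 25 bases, between Ccl6 and Ccl9. Only Ccl9 had stretches of 50 bases found in other genes, 59 of its 2996, in 250 other genes. Transcripts were compared in the sense direction only, so bases shared with a gene on the opposite strand were not seen. Ccl2 and Ccl6 each overlap an annotated gene on the opposite strand, and the sources used here do not say if reads were counted by strand. The partner of Ccl6, E230016K23Rik, had between 377 and 645 counts, against 77597 to 103323 for Ccl6.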

How the data were processed

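Counts and FPKM of 3 wt and 3 ko libraries, grouped by title, were used. The count column of each library is as the authors deposited it, in whole reads and unscaled. For each gene, a length was derived from the deposited count, library total and FPKM of each library. This length varied by less than 0.1% between libraries for all 19899 genes checked, and no outside gene length was used. The build is mm10 per the submitters' processing notes, and the aligner and counter are not given in the sources used here. All 12 measured columns were mapped to a library.

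Counts were tested with edgeR 4.0.16 in R 4.3.3 (filterByExpr, TMM factors, glmQLFit and glmQLFTest), with Benjamini-Hochberg adjustment across 13884 genes and a threshold of 0.05. The SE of a log2 fold change was taken as its size over the root of F, and intervals cover 95%. The lowest count of any of the 10 genes was 89, so the spread between libraries, not counting error, sets the precision. The fit was tested on simulated data. Alternatives used DESeq2 1.42.0, limma 3.58.1 on log2 FPKM, other scalings and filters, a block for the replicate number, and each library left out. Replicates of a group differed by more than sampling noise, with chi-square values per gene of at least 31.1.

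The 10 genes and the gene lists were chosen with earlier results of these data known. The genes named were all 10, Npm1, and the tested gene with the smallest p in each direction from the lists of other CC chemokines, receptors and regulators, and others are marked where they are named. A further receptor is not reported here. Motifs were searched on both strands in the 250 bases before the RefSeq start, which matched 5 of the 10 genes.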

Additional observations from a re-analysis of the deposited data

How the results depend on the processing

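DESeq2 called 36 of all genes where edgeR called 0, and 0 of the 10 CC chemokines. Across all 15 alternatives the number of the 10 called was 0. The log2 fold changes of Ccl24 stayed above 0 in each of the 15, with adjusted p from 0.158 to 0.701. Those of Ccl12 were below 0 in each, with adjusted p from 0.264 to 0.997. Scaled to the macrophage list, however, Ccl12 stood at -0.0016 ± 0.28 (SE), which is practically 0. With limma, Ccl7 changed sign, at 0.0284 on log2(FPKM + 1) and at 0.0285 on log2(FPKM + 0.1), the latter of which moved the median of all genes from 0.02 to 0.16. Scaled to the macrophage list, an alternative chosen after the data were examined that moved this median to 0.57, Ccl6 (0.27), Ccl7 (0.35), Ccl8 (0.0252) and Ccl9 (0.23) changed sign, to values below that shift. The cause was not tested.

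With each library left out in turn, 0 genes were called throughout, and the log2 fold changes ranged from -0.19 to 0.33 for Ccl2, from -0.0889 to 0.30 for Ccl3, from -0.0628 to 0.52 for Ccl4, from -0.0528 to 0.55 for Ccl5 and from -0.36 to 0.10 for Ccl7, with both signs in each. They kept their sign from -0.42 to -0.12 for Ccl6, from -0.82 to -0.15 for Ccl8, from -0.47 to -0.15 for Ccl9, from -0.72 to -0.33 for Ccl12 and from 0.24 to 0.52 for Ccl24.

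The labels do not say whether libraries with the same replicate number are paired. The correlations of their deviations from the group means were -0.241, 0.0605 and -0.337 for numbers 1, 2 and 3. With 3 libraries per group these cannot settle whether the replicate number marks pairs. In the fit that takes this number as a block, 0 genes were called, and the log2 fold changes of Ccl12 and Ccl24 were -0.50 and 0.41.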
